A study of Mus musculus with 6 samples.

Results

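The classical axon guidance ligands and their receptors were followed in RNA sequencing of mouse lung cells sorted by Lamp1 on the cell surface. The set was taken by gene name and holds every semaphorin, plexin, netrin, Unc5, Slit, Robo, Eph receptor and ephrin whose symbol follows the family's numbering in the count table. It comprised 65 of 49315 genes, with 34 ligands (20 semaphorins, 3 netrins, 3 Slits, 5 A-type and 3 B-type ephrins) and 31 receptors (9 plexins, 4 Unc5 receptors, 4 Robos, 9 EphA and 5 EphB receptors). No measured value was used to choose them. At least 10 reads in 1 or more libraries were counted for 62 of the 65, and Epha6, Epha8 and Ntn5 stayed under 10 reads in every library.

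These families were first described as cues that attract or repel growing axons, and they have the same wiring outside the nervous system. Semaphorins signal through plexins, and the secreted class 3 semaphorins mostly need a neuropilin as co-receptor. Netrins bind Unc5 receptors, DCC and neogenin, Slits bind Robos, and ephrins are membrane-bound ligands that signal to Eph receptors on a touching cell and back into the cell that carries them. In blood vessels, Efnb2 marks arterial and Ephb4 venous endothelium, Robo4 and Plxnd1 are largely endothelial receptors, and Unc5b is expressed in arterial and sprouting endothelium. Several class 4 semaphorins, among them Sema4a and Sema4d, act on the surface of leukocytes.

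The study compared male C57BL/6 mice (C57BL/6J in the study's methods) given saline (sham) or bleomycin sulfate (BLM), a drug that injures the lung and causes fibrosis, through the oropharynx, with lungs taken 21 days later. Cell suspensions were sequenced unsorted or after a flow cytometry sort of viable cells into Lamp1-depleted and Lamp1-enriched fractions, which gave 6 conditions with 1 library each. Lungs of several mice were pooled in a tube, so animals cannot be told apart, and the age of the mice was not given in the sources used here. Lamp1, a lysosomal membrane protein, was studied there as a surface marker of senescent cells, so the enriched fraction is defined by that protein alone and not by a cell type.

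Counted reads ranged from 30236120 to 52918696 per library. The BLM Lamp1-depleted library stood apart, with 38.4% of its reads on the predicted gene Gm26917 against 0.884% to 7.10% elsewhere. Cell type markers separated the fractions. All 15 endothelial markers were higher in the enriched fraction (edgeR quasi-likelihood test, adjusted p under 0.05, as below). In the same test all 8 T cell, 5 B cell, 5 NK cell and 5 neutrophil markers were lower. Macrophage markers were lower for 5 of 9 and not called for the rest. The neutrophil markers differed mostly in BLM, where 5 of 5 were at least 2-fold lower in enriched cells, against 1 of 5 in sham. Also higher in the enriched fraction were 6 of 6 platelet, 7 of 9 alveolar epithelial, 6 of 8 smooth muscle and pericyte, 5 of 8 fibroblast, 2 of 4 lymphatic endothelial and 1 of 5 mesothelial markers. Median log2 folds were 3.92 for platelet, 3.25 for endothelial, 2.31 for smooth muscle and pericyte, 2.05 for alveolar epithelial and 1.64 for fibroblast markers. Summed endothelial markers were at 1575 CPM (read counts brought to a common library size) in sham and 1129 CPM in BLM depleted cells against 12170 and 12431 CPM in enriched cells. Neuron and Schwann cell markers summed to between 4.63 and 10.2 CPM over the libraries. These are bulk suspensions, so more cells of a type and more RNA per cell cannot be told apart, and the part of cell composition in the results was not tested.

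The set took 0.602% of counted reads in sham unsorted cells, 0.153% in sham Lamp1-depleted and 0.759% in sham Lamp1-enriched cells. The shares in the BLM libraries, in the same order, were 0.379%, 0.0836% and 0.852%. Levels below are CPM scaled by TMM factors, and 3 values for a treatment stand for unsorted, Lamp1-depleted and Lamp1-enriched cells. Levels of different genes were compared only after division by exon length (CPM per kb).

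Sema3c, a secreted class 3 semaphorin, was the leading gene of the whole set. Its level per kb was the highest of the 65 in all unsorted and enriched libraries, at 213 CPM per kb in sham unsorted, 105 in BLM unsorted, 358 in sham Lamp1-enriched and 388 in BLM Lamp1-enriched cells. It alone took 34.4% of the set's reads in sham and 33.5% in BLM Lamp1-enriched cells. In sham Lamp1-depleted cells it was level with Sema4d, each at 28.4 CPM per kb, and in BLM Lamp1-depleted cells it stood at 13.1 CPM per kb, behind Sema4d at 31.6 and Sema7a at 19.6. Efnb2, Ephb4, Sema3g and Sema3f followed Sema3c in both sham unsorted and sham Lamp1-enriched cells.

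Several families were dominated by 1 member. Ephb4 made up between 88.5% and 99.0% of the summed EphB level per kb in each library, Robo4 between 91.4% and 96.9% of the Robo level, and Efna1 between 83.8% and 97.5% of the A-type ephrin level. Unc5b ranged from 64.7% to 91.0% of the Unc5 level. The netrins were shared by Ntn1 and Ntn4, with Ntn1 at 41.7% in sham unsorted and 72.4% in BLM Lamp1-enriched cells. Of the plexins, Plxna1, Plxnd1, Plxnb2 and Plxnc1 were each above 5% of the family in every library.

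**Figure D1:**
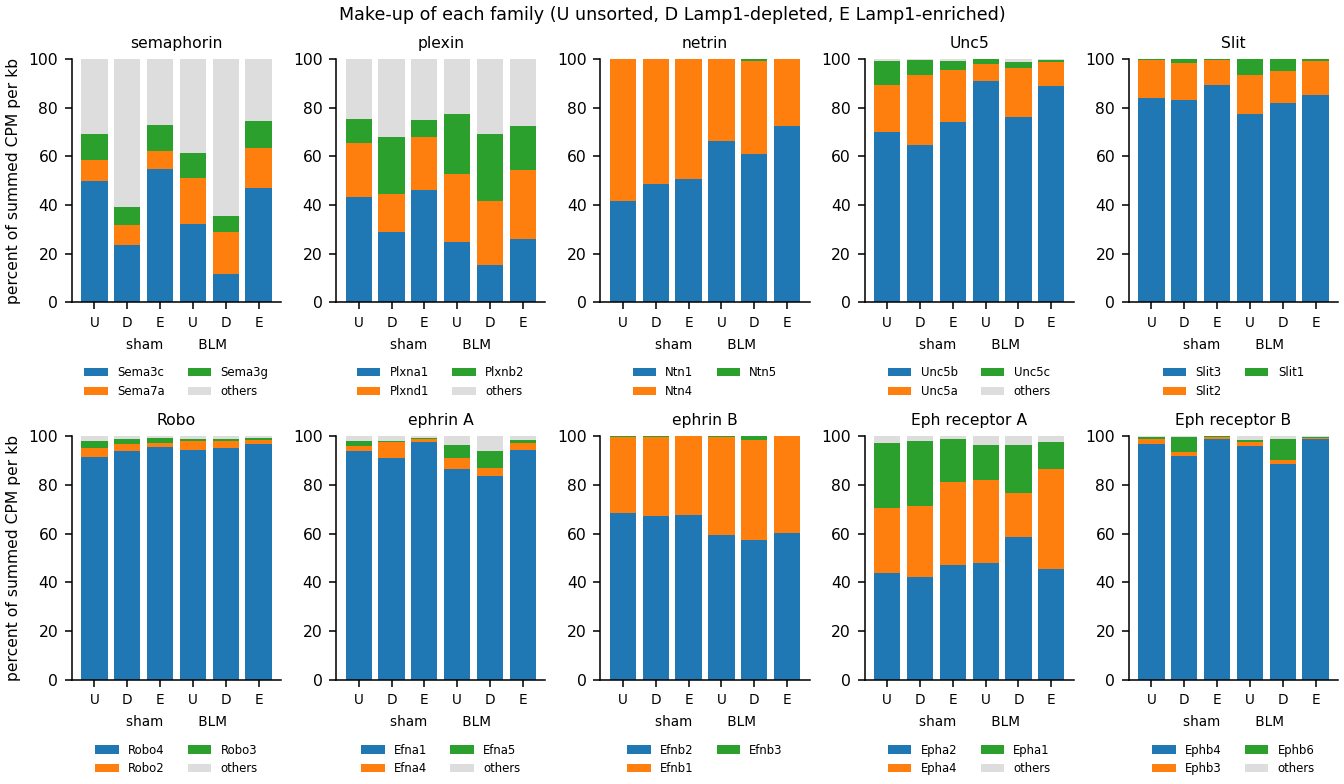
Percent of each family's summed level (CPM per kb of exon, vertical axis) held by its 3 leading members and by the others, in each of the 6 libraries (U unsorted, D Lamp1-depleted, E Lamp1-enriched; 1 library a bar). Ephb4, Robo4 and Efna1 fill most of their panels in all libraries, and Sema3c takes 54.8% of the semaphorin level in sham Lamp1-enriched but 11.6% in BLM Lamp1-depleted cells.

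The first comparison was between Lamp1-enriched and Lamp1-depleted cells. Over both treatments, 39 members were higher in the enriched fraction, 5 were lower and 11 were not called, of the 55 with enough reads to be tested. The background over all 20593 genes tested was 21.5% higher and 19.2% lower. The test was edgeR's quasi-likelihood test across the 4 libraries of sorted cells, blocked by treatment, with Benjamini-Hochberg adjustment over all genes. Its only replication is the sham pair and the BLM pair, 1 residual degree of freedom for a gene, so the p-values rest on the spread pooled over genes. Log2 folds from this fit are given ± SE (n = 2 pairs), the absolute log2 fold divided by the square root of the test's F value. The SE rests on the same pooled spread and does not measure how the 2 pairs of that gene differ.

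Counting members past 2-fold in each treatment gave the same picture, with no test since each side is 1 library. In sham, 43 of the 55 members that reached 10 reads on 1 side were higher in the enriched fraction (background 27.5%) and 5 lower (25.2%). In BLM, 47 of 62 were higher (34.3%) and 8 lower (22.6%). For the members the middle log2 ratio (median) was 2.41 in sham and 2.21 in BLM, beside -0.01 and 0.29 over all genes. Marker medians in the same order were 3.09 and 3.52 for endothelial, 2.76 and 2.21 for smooth muscle and pericyte and 2.78 and 1.84 for alveolar epithelial markers. They were 1.43 and 2.28 for fibroblast and 4.71 and 2.88 for platelet markers.

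**Figure D2:**
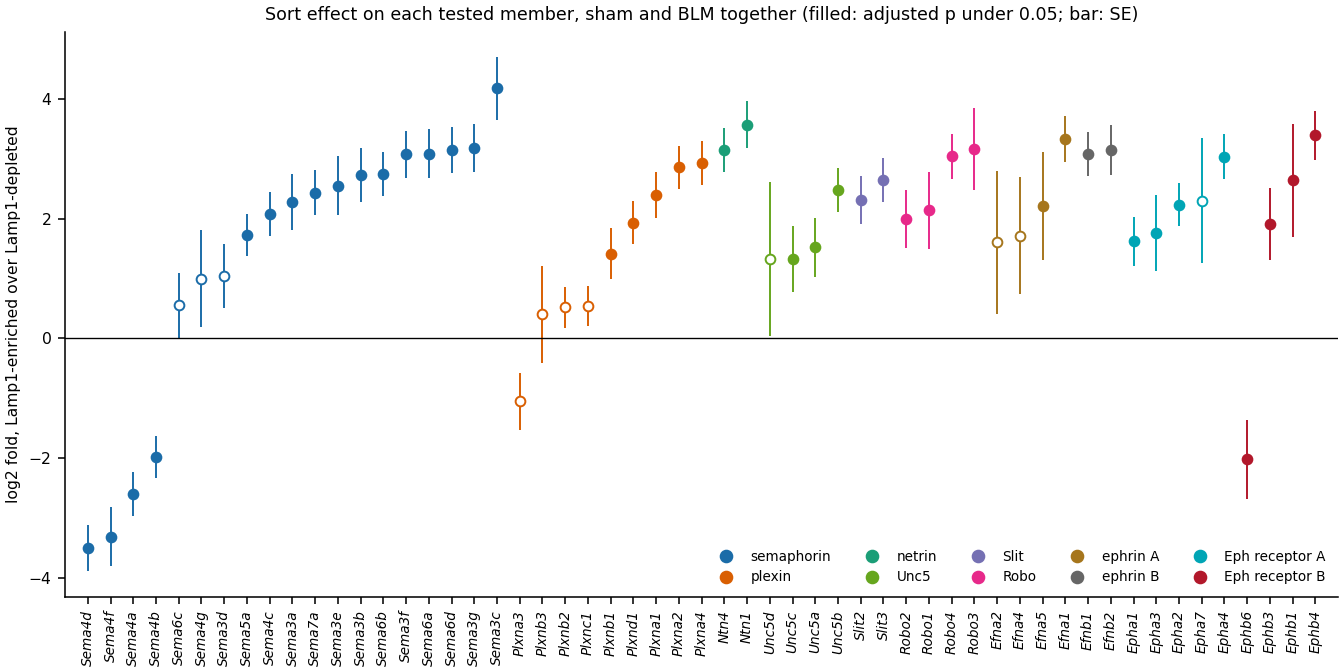
Log2 fold between Lamp1-enriched and Lamp1-depleted cells (vertical axis) for the 55 tested members, grouped by family; points are edgeR estimates over sham and BLM, bars their SE, and filled points have an adjusted p under 0.05. Most points lie between 1 and 4, and the 5 filled points under 0 are Sema4d, Sema4f, Sema4a, Sema4b and Ephb6.

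Among the ligands, 20 of 29 tested were higher and 4 lower. Class 3 semaphorins were higher for 6 of 7 and class 6 for 3 of 4, while class 4 went the other way, with 4 of 6 lower and Sema4c alone higher. Sema3c was at 1518, 203 and 2554 CPM in the sham libraries and 747, 93.8 and 2772 CPM in the BLM libraries. Both depleted libraries were far below the others, and the log2 fold of 4.17 ± 0.52 (edgeR adjusted p = 3.36e-14) was the largest of the set. Sema3f, which with neuropilin restrains vessel growth, was at 215, 44.8 and 326 CPM in the sham libraries and 164, 39.2 and 433 CPM in the BLM libraries, and its log2 fold was 3.07 ± 0.40 (adjusted p = 2.12e-13). Sema3g, a class 3 semaphorin known from arterial endothelium, was at 206, 41.5 and 320.2 CPM in the sham libraries and 152, 34.8 and 424 CPM in the BLM libraries, with a log2 fold of 3.18 ± 0.40 (adjusted p = 3.23e-14). The transmembrane Sema6a and Sema6d had log2 folds of 3.08 ± 0.40 and 3.14 ± 0.39. Marker medians were 3.92 for platelet, 3.25 for endothelial, 2.31 for smooth muscle and pericyte, 2.05 for alveolar epithelial and 1.64 for fibroblast markers. The part of these cell types in the folds was not tested. Sema6b and Sema5a were higher too, at 2.74 ± 0.37 and 1.73 ± 0.35, and Sema6c was not called at 0.55 ± 0.55. The remaining class 3 members were lower in level, with Sema3a at a log2 fold of 2.28 ± 0.47, Sema3b at 2.73 ± 0.46 and Sema3e at 2.55 ± 0.49, while Sema3d was not called at 1.04 ± 0.53 (edgeR adjusted p = 0.107).

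The 4 class 4 semaphorins that were lower shared that side with the T cell, B cell, NK cell and neutrophil markers. On the same side were 5 of 9 macrophage and monocyte markers, and the part of these cell types was not tested. Sema4d, which binds plexin B1 and, on lymphocytes, CD72, was at 37.0, 218 and 20.0 CPM in the sham libraries and 129, 243 and 23.7 CPM in the BLM libraries. The 2 depleted libraries were its highest and the 2 enriched ones its lowest, and the log2 fold was -3.50 ± 0.39 (edgeR adjusted p = 9.55e-18). Sema4a, which acts in T cell priming, was at 10.2, 33.6 and 5.19 CPM in the sham libraries and 75.6, 56.8 and 11.5 CPM in the BLM libraries. Here the enriched libraries were again the lowest of each treatment, but BLM unsorted cells exceeded both sorted fractions, and the log2 fold was -2.59 ± 0.37 (adjusted p = 2.59e-11). Sema4b was at 13.0, 59.4 and 13.0 CPM in the sham libraries and 30.3, 35.5 and 11.9 CPM in the BLM libraries, and its log2 fold was -1.98 ± 0.36 (adjusted p = 2.47e-07), a call lost with total counts in place of TMM. Sema4f was the faintest of the 4, at 2.47, 6.65 and 1.09 CPM in the sham libraries and 4.16, 16.9 and 1.21 CPM in the BLM libraries, with a log2 fold of -3.31 ± 0.49 (adjusted p = 1.74e-10). Sema4c was on the opposite side at 2.07 ± 0.36 (edgeR adjusted p = 1.04e-07), and Sema4g, under 3 CPM in every library, was not called.

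Every tested netrin, Slit and B-type ephrin was higher in the enriched fraction. Ntn1, the founding netrin, was at 133, 25.0 and 242 CPM in the sham libraries and 139, 22.9 and 382 CPM in the BLM libraries, and both enriched libraries were its highest, with a log2 fold of 3.57 ± 0.40 (edgeR adjusted p = 1.52e-17). Ntn4, a netrin of basement membranes, was at 111, 15.7 and 139.7 CPM in the sham libraries and 42.3, 8.52 and 86.4 CPM in the BLM libraries, with a log2 fold of 3.15 ± 0.37 (adjusted p = 4.56e-16). Slit3 and Slit2, secreted ligands of the Robos, had log2 folds of 2.64 ± 0.38 and 2.31 ± 0.40, while Slit1 had too few reads to be tested. Efnb2 was at 393, 80.2 and 597 CPM in the sham libraries and 171, 38.6 and 464 CPM in the BLM libraries. Its enriched libraries were the highest of each treatment and its depleted ones the lowest, at a log2 fold of 3.14 ± 0.41 (edgeR adjusted p = 4.24e-13). Efnb1 had a log2 fold of 3.07 ± 0.37. Efna1, the A-type ephrin that endothelium makes in response to inflammatory signals, was at 43.3, 6.65 and 65.1 CPM in the sham libraries and 14.8, 4.07 and 48.2 CPM in the BLM libraries, with a log2 fold of 3.33 ± 0.38 (adjusted p = 8.36e-17). Efna5 was higher as well, at 2.21 ± 0.91 (edgeR adjusted p = 0.0383), from 3 reads in sham and 15 reads in BLM depleted cells, but lost its call in 4 of the alternative fits, while Efna2 and Efna4, both under 100 reads in every library, were not called.

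Among the receptors, 19 of 26 tested were higher and only Ephb6 was lower. Ephb4, the receptor of Efnb2 on venous endothelium, was at 215, 37.5 and 374 CPM in the sham libraries and 174, 41.0 and 514 CPM in the BLM libraries. Both enriched libraries were well above the rest, and the log2 fold was 3.39 ± 0.41 (edgeR adjusted p = 2.55e-15). Ephb6, an Eph receptor without kinase activity that is known in T cells, was at 1.44, 2.17 and 0.695 CPM in the sham libraries and 1.52, 3.22 and 0.697 CPM in the BLM libraries, highest in both depleted libraries, with a log2 fold of -2.02 ± 0.66 (adjusted p = 0.00749), and was not called with total counts in place of TMM. The A-type receptors Epha4, Epha2, Epha1 and Epha3 had log2 folds of 3.03 ± 0.37, 2.23 ± 0.36, 1.62 ± 0.41 and 1.76 ± 0.63, the last of them lost in 3 of the alternative fits, and Epha7 was not called at 2.30 ± 1.05 (edgeR adjusted p = 0.066).

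All 4 Robos were higher. Robo4 was at 112, 21.4 and 166 CPM in the sham libraries and 73.2, 17.6 and 175 CPM in the BLM libraries, with a log2 fold of 3.04 ± 0.37 (edgeR adjusted p = 7.53e-15). Its neighbour on chromosome 9, Robo3, lies on the other strand (GRCm38, Robo4 at 37401897 to 37415115 and Robo3 at 37415669 to 37433246) and had a log2 fold of 3.15 ± 0.69 (adjusted p = 2.67e-05) at a level of at most 4.87 CPM. Robo1 and Robo2 were higher by log2 folds of 2.14 ± 0.64 and 2.00 ± 0.49. Among the netrin receptors, Unc5b was at 29.4, 6.43 and 38.2 CPM in the sham libraries and 56.0, 14.2 and 84.6 CPM in the BLM libraries, with a log2 fold of 2.48 ± 0.36 (edgeR adjusted p = 1.14e-10). Unc5a and Unc5c were higher at 1.52 ± 0.50 and 1.33 ± 0.55, the latter lost in 3 of the alternative fits, and Unc5d was not called.

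The plexins, the semaphorin receptors, were divided. Plxna1, Plxna2, Plxna4, Plxnd1 and Plxnb1 were higher in the enriched fraction, by log2 folds of 2.40 ± 0.38, 2.85 ± 0.36, 2.93 ± 0.36, 1.93 ± 0.36 and 1.41 ± 0.43. Plxnb2, which serves class 4 semaphorins and angiogenin, was at 70.0, 55.1 and 63.1 CPM in the sham libraries and 212, 73.5 and 150.0 CPM in the BLM libraries. In sham its 3 libraries lay close together, and the log2 fold of 0.52 ± 0.34 (edgeR adjusted p = 0.229) was not called. Plxnc1, the receptor of Sema7a on leukocytes and other cells, was at 59.6, 53.6 and 77.0 CPM in the sham libraries and 116, 58.7 and 98.1 CPM in the BLM libraries and was not called either, at 0.54 ± 0.34 (adjusted p = 0.2). The ligand Sema7a, a GPI-anchored semaphorin, was by contrast higher in the enriched fraction at 2.43 ± 0.38 (edgeR adjusted p = 1.71e-09). Plxna3 and Plxnb3 were not called at -1.05 ± 0.48 and 0.40 ± 0.81, and the value of Plxnb3 turned to -0.57 in a fit of the other 5 libraries that left out the BLM Lamp1-depleted one.

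**Figure D3:**
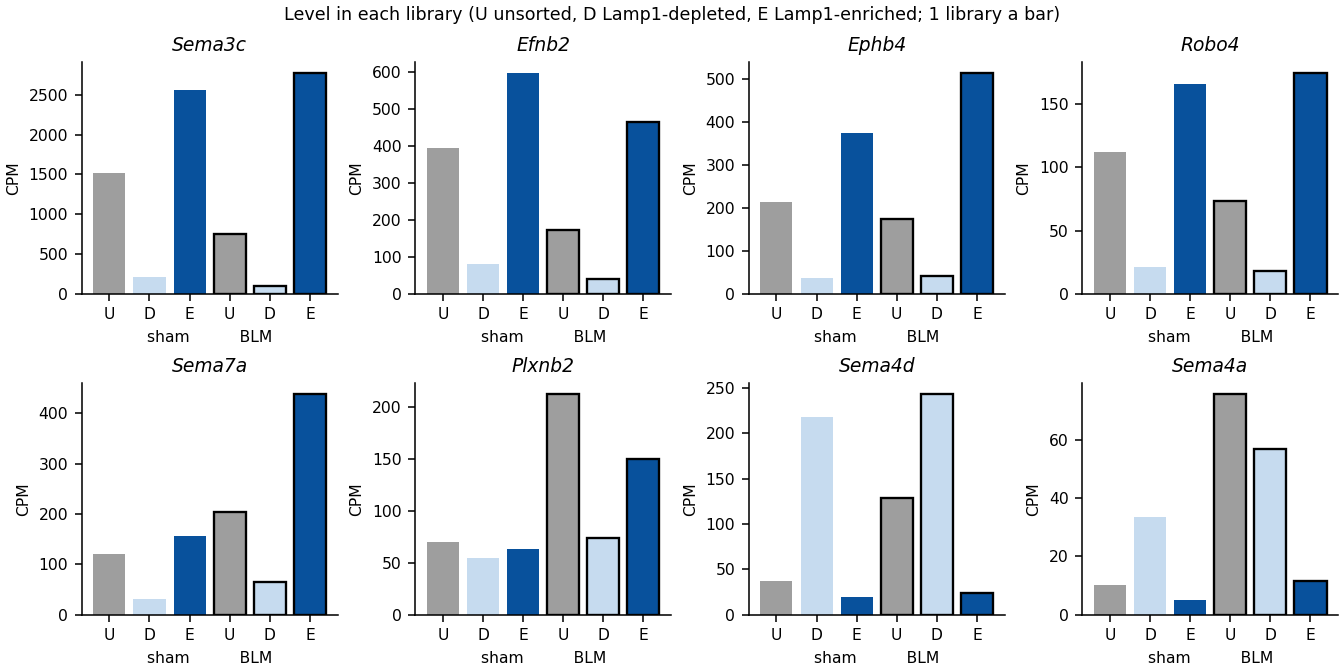
Level in CPM (vertical axes, each starting at 0) of 8 members in the 6 libraries, with sham at the left and BLM outlined at the right (U unsorted, D Lamp1-depleted, E Lamp1-enriched; 1 library a bar, so no error bar). Sema3c, Efnb2, Ephb4, Robo4 and Sema7a are highest in Lamp1-enriched cells of each treatment, Plxnb2 and Sema4a are highest in BLM unsorted cells, and Sema4d is highest in Lamp1-depleted cells.

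The start regions of 4 of these genes are shown because they stand for the patterns above: the ligand and receptor pair Efnb2 and Ephb4, both high in the enriched fraction, Sema7a, which was also over 2-fold higher in BLM than in sham enriched cells, and Sema4a, high in the depleted fraction. Each is the 250 bases before the RefSeq transcription start, read 5′ to 3′ in the direction of the gene (GRCm38.p6): Ephb4 at chr5:137349859-137350108, plus strand, Efnb2 at chr8:8661243-8661492, minus strand, Sema7a at chr9:57939862-57940111, plus strand and Sema4a at chr3:88461183-88461432, minus strand. Capitals mark the GC box letters GGGCGG and the TATA box letters TATAAA on either strand, so that CCGCCC and TTTATA are the same motifs read from the other strand.
Ephb4: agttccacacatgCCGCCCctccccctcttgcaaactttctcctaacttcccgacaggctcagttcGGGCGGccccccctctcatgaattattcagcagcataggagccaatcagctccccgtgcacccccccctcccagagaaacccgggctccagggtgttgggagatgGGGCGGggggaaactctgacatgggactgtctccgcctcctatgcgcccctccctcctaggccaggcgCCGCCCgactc
Efnb2: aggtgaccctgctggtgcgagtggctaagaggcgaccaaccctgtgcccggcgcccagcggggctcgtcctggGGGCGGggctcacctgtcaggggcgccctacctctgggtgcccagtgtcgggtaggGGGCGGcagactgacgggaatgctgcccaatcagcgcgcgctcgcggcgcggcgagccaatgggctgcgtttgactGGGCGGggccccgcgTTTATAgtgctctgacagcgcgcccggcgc
Sema7a: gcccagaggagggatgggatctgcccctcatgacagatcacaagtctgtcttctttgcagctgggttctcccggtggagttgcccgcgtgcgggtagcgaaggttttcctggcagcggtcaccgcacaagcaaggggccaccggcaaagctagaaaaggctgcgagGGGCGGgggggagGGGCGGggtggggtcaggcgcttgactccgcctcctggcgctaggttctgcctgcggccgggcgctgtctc
Sema4a: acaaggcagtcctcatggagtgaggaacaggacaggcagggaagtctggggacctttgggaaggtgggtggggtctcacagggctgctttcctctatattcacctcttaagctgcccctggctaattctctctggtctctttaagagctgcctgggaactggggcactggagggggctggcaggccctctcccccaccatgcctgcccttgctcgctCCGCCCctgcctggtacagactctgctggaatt
All 4 windows hold GGGCGG, with 4 matches in Ephb4, 3 in Efnb2, 2 in Sema7a and 1 in Sema4a, and Efnb2 also has 1 TATAAA match. Their GC content is 64.0%, 72.0%, 66.4% and 59.6%.

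Of the 65 members, 56 had RefSeq start regions in the table, with 72 windows in all. GGGCGG was found in 50 of these 72 windows (69.4%) and in 32.7% of 32851 windows of all genes, and the median GC content was 64.2% against 52.4%. The windows of members higher in the enriched fraction held GGGCGG in 71.8% of 39 and those of members lower there in 63.6% of 11. The other motifs searched on both strands were the ETS letters AGGAAG (33.3% of member windows, 29.5% of all) and CCGGAAGT (0 of 72 member windows, 2.88% of all), the GATA letters AGATAA (4.17% and 9.99%), the SOX letters ACAAAG (9.72% and 16.5%) and TATAAA (2.78% and 12.4%). No motif lies within another. A match describes letters only, and several windows belong to the same gene.

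Unsorted cells were compared with both fractions of their own treatment. The unsorted level lay between the 2 fractions for 35 of 58 members in sham (background 51.6%) and for 40 of 58 in BLM (55.2%). In sham, 9 of 58 members were at least 2-fold higher in unsorted cells than in either fraction (background 7.69%), namely Efna2, Epha3, Epha5, Ephb1, Ephb2, Robo1, Robo2, Sema3d and Unc5c. Robo2, with the most reads of the 9, was at 15.4, 2.02 and 7.67 CPM in the sham libraries and 9.79, 1.85 and 8.92 CPM in the BLM libraries. In BLM only Plxnb3 and Slit1 did so, 2 of 58 (9.35%). These 9 genes had between 19 and 749 reads in sham unsorted cells.

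The enriched fraction stood further above unsorted cells in BLM than in sham. At least 2-fold higher levels in enriched than in unsorted cells were counted for 23 of 61 members in BLM (background 12.6%) and for 1 of 59 in sham (2.63%), that 1 being Slit1 with 10 and 5 reads. At least 2-fold lower levels were counted for 7 of 61 in BLM (19.1%) and 11 of 59 in sham (15.9%). For Sema3c the log2 ratio was 1.89 in BLM and 0.75 in sham, and for Ephb4 it was 1.56 and 0.80. Endothelial markers were at least 2-fold higher in enriched than in unsorted cells for 11 of 15 in BLM and 1 of 15 in sham. For platelet markers the counts were 4 of 6 in BLM and 6 of 6 in sham. The count was 0 in both treatments for smooth muscle and pericyte, fibroblast and alveolar epithelial markers. The difference between treatments was not tested, since each condition has 1 library, and the part of these cell types in it was not tested either.

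The second comparison was between BLM and sham in each suspension. Within a suspension each side is 1 library of pooled lungs, so log2 ratios there carry no test and are given with a 95% counting interval, which covers counting error only and not the spread between mice. In unsorted cells, 7 of 60 members were at least 2-fold higher in BLM (background 13.9%) and 13 at least 2-fold lower (16.0%), and the median log2 ratio was -0.39 against -0.07 over all genes. In Lamp1-enriched cells, 12 of 61 were higher (10.2%) and 2 lower (7.86%). In Lamp1-depleted cells, 9 of 53 were higher (13.7%) and 6 lower (22.3%), a count that turned to 3 higher and 19 lower with total counts in place of TMM.

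Over the 3 suspensions together BLM and sham were compared with edgeR's quasi-likelihood test blocked by suspension (n = 3 pairs), a test added after the ratios had been seen. Of 60 members tested, 6 were higher in BLM (background 2.85%) and 0 lower (1.73%). At an unadjusted p under 0.05 in this test, 12 members were higher and 9 lower. Those are 21 of 60 members, beside 4232 of all 21906 genes tested, counted in either direction. The receptor Ephb1 rose by a log2 fold of 3.75 ± 0.66 (edgeR adjusted p = 0.00941). The other 5 were Sema6b at 1.28 ± 0.24 (edgeR adjusted p = 0.0144), Unc5b at 1.12 ± 0.23 (edgeR adjusted p = 0.0215), Sema7a at 1.14 ± 0.25 (edgeR adjusted p = 0.0299), Sema4a at 1.63 ± 0.38 (edgeR adjusted p = 0.034) and Plxnb2 at 1.14 ± 0.27 (edgeR adjusted p = 0.0408). All 6 were also called without the BLM Lamp1-depleted library and by DESeq2's Wald test, which in addition called Efnb2, Ntn4 and Robo3 lower. With total counts in place of TMM only Ephb1 was still called higher, and Epha1, Ntn4 and Robo3 were called lower. The 3 pairs differ by cell suspension and each side is pooled lungs, so these p-values do not measure the spread between mice. Unsorted suspensions also hold the kinds of cells found in both sorted fractions. The sources used here do not say whether the suspensions came from the same lungs, and if they did the pairs are not independent.

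Of the 13 members at least 2-fold lower in BLM unsorted cells, 8 (61.5%) were among the 39 higher in the enriched fraction, beside 70.9% of all members tested. The 13 include Epha5, which had too few reads for the sort test. Sema3c was at 1518 CPM in sham and 747 CPM in BLM unsorted cells, a log2 ratio of -1.02, but at 2554 and 2772 CPM in enriched cells, a ratio of 0.12 (0.11 to 0.13). Efnb2 had log2 ratios of -1.20 in unsorted, -0.36 in Lamp1-enriched and -1.05 in Lamp1-depleted cells. Ntn4 had log2 ratios of -1.39 in unsorted, -0.69 in Lamp1-enriched and -0.88 in Lamp1-depleted cells. Efna1 had log2 ratios of -1.55 in unsorted, -0.43 in Lamp1-enriched and -0.71 in Lamp1-depleted cells. The receptor Robo3, with 198 reads in sham and 31 in BLM unsorted cells, was at -2.36 in unsorted, -1.03 in Lamp1-enriched and -1.62 in Lamp1-depleted cells, and Robo1 was at -1.63 in unsorted, -0.35 in Lamp1-enriched and -0.54 in Lamp1-depleted cells. These 6 were nearest 0 in enriched cells, while the receptors Epha1, at -1.77 in unsorted, -0.57 in Lamp1-enriched and -0.51 in Lamp1-depleted cells, and Unc5c, at -1.76 in unsorted, -0.79 in Lamp1-enriched and -0.37 in Lamp1-depleted cells, were nearest 0 in depleted cells. Summed endothelial markers in unsorted cells were at 7125 CPM in sham and 4477 CPM in BLM, with 7 of 15 at least 2-fold lower and a median log2 ratio of -0.98, while in enriched cells their median was -0.10. Other markers were lower in BLM unsorted cells as well, with 6 of 6 platelet, 5 of 9 alveolar epithelial and 4 of 8 smooth muscle and pericyte markers at least 2-fold lower, and medians of -2.02 for platelet and -1.29 for alveolar epithelial markers. The part of these cell types in the values was not tested.

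A few members were higher in BLM within each suspension. Sema7a had log2 ratios of 0.77 in unsorted cells (95% counting interval 0.72 to 0.82), 1.48 in Lamp1-enriched cells (1.44 to 1.52) and 1.02 in Lamp1-depleted cells (0.91 to 1.12). Its level in enriched cells was 157 CPM in sham and 437 CPM in BLM, where only Sema3c was higher among the 65 by level per kb. Sema6b, a transmembrane class 6 semaphorin, was at 24.3, 4.96 and 31.5 CPM in the sham libraries and 46.8, 11.5 and 91.5 CPM in the BLM libraries and had log2 ratios of 0.95 in unsorted, 1.54 in Lamp1-enriched and 1.21 in Lamp1-depleted cells. Unc5b, the endothelial netrin receptor, had log2 ratios of 0.93 in unsorted, 1.15 in Lamp1-enriched and 1.14 in Lamp1-depleted cells. With total counts in place of TMM every ratio in depleted cells moved by -0.72, which takes these 3 genes under 2-fold there. In the enriched cells, where these 3 genes were at least 2-fold higher, 0 of 15 endothelial markers were at least 2-fold higher and 2 were lower. Of 9 macrophage markers 6 were higher and 1 lower, and of 8 fibroblast markers 3 were higher and 1 lower. Also higher were 3 of 4 mesothelial, 2 of 5 neutrophil and 2 of 6 airway epithelial markers, with 0, 0 and 1 lower. The part of these cell types in the ratios was not tested.

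Plxnb2 and the class 4 ligands Sema4a, Sema4b and Sema4d had their largest ratios in unsorted cells. Plxnb2 had log2 ratios of 1.60 in unsorted, 1.25 in Lamp1-enriched and 0.41 in Lamp1-depleted cells. Sema4a was at 10.2 CPM in sham and 75.6 CPM in BLM unsorted cells, and its log2 ratios were 2.89 in unsorted, 1.14 in Lamp1-enriched and 0.76 in Lamp1-depleted cells. Sema4d was at 37.0 and 129 CPM in the same libraries, with ratios of 1.80 in unsorted, 0.24 in Lamp1-enriched and 0.16 in Lamp1-depleted cells. Sema4b was higher in unsorted cells alone, at 1.21 in unsorted, -0.12 in Lamp1-enriched and -0.74 in Lamp1-depleted cells. Macrophage and monocyte markers in unsorted cells summed to 285 CPM in sham and 2164 CPM in BLM, with 8 of 9 at least 2-fold higher. In Lamp1-enriched cells the sums were 109 and 297 CPM, with 6 of 9 at least 2-fold higher and 1 lower, whereas in Lamp1-depleted cells they were 447 and 389 CPM. Of the T cell markers 1 of 8 was at least 2-fold higher in BLM unsorted cells, with a median log2 ratio of 0.12, and of the B cell markers 3 of 5 were at least 2-fold lower, with a median of -1.44. The part of these cells in the ratios was not tested.

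Ephb1, a B-type Eph receptor, had the largest ratio in Lamp1-enriched cells among members with over 100 reads there. It had 25, 0 and 8 reads in the sham libraries and 129, 14 and 178 reads in the BLM libraries. Each BLM library was above its sham counterpart, with a log2 ratio of 2.64 in unsorted cells (2.04 to 3.35) and 4.16 in enriched cells (3.22 to 5.47). For depleted cells, with 0 reads in sham, the lower counting limit of the log2 ratio was 2.84. In the sort comparison its log2 fold was 2.64 ± 0.94 (edgeR adjusted p = 0.0148), a call lost without the treatment block. Sema5b, near 0 in sham, had 2, 1 and 4 reads in the sham libraries and 17, 0 and 63 reads in the BLM libraries, and its log2 ratio in enriched cells was 3.59 (2.31 to 5.65). Slit1 was present mostly in BLM unsorted cells, at 5, 5 and 10 reads in the sham libraries and 72, 7 and 14 reads in the BLM libraries, with a log2 ratio there of 4.01 (2.86 to 5.81). Sema3d and Epha3 were higher in BLM enriched cells, at 1.59 and 1.54.

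**Figure D4:**
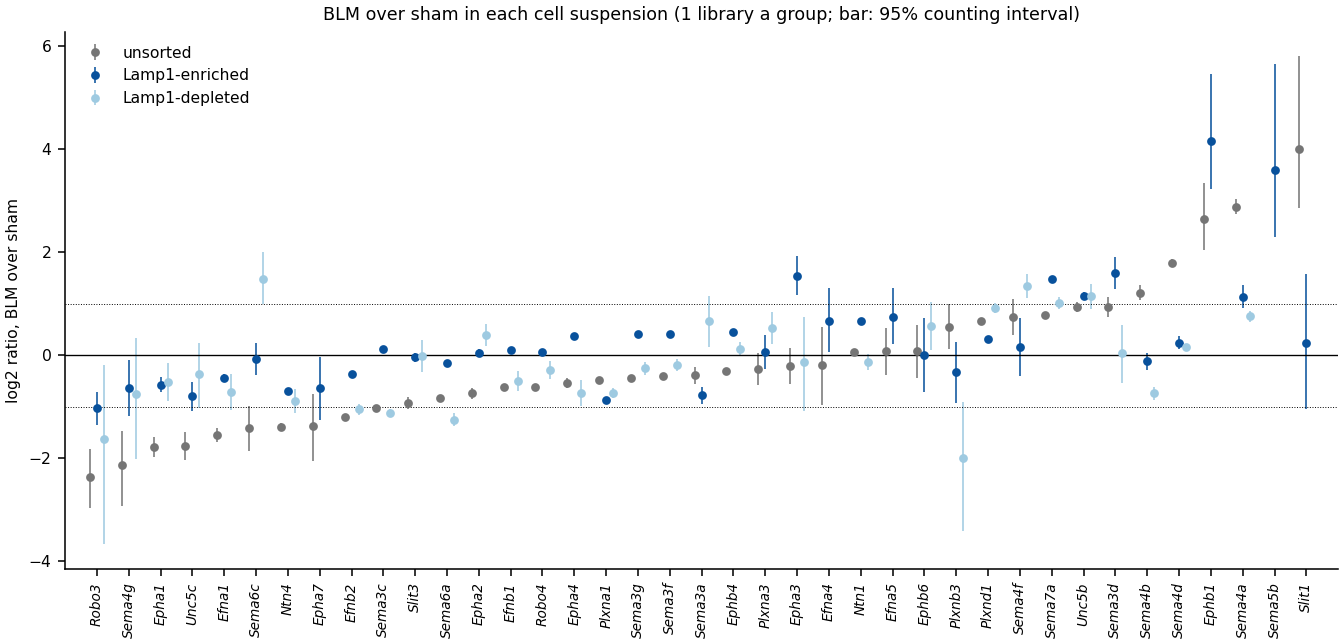
Log2 ratio of BLM over sham (vertical axis) in unsorted, Lamp1-enriched and Lamp1-depleted cells for the named members, ordered by the unsorted ratio; each point compares 1 library with 1 library, bars are 95% counting intervals, dotted lines mark 2-fold, and ratios against 3 or fewer reads are left out. Robo3, Sema4g and Epha1 lie lowest and Sema4a and Slit1 highest in unsorted cells, and Ephb1 lies highest in enriched cells.

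Of the 52 members with a ratio in all 3 suspensions, 13 were above 0 in each (background 19.9%) and 13 below 0 in each (27.4%). Ephb1 was the 1 member past 2-fold higher in all 3 (2.39%) and Robo3 the 1 past 2-fold lower (1.77%). For Robo3 the depleted ratio came from 28 reads in sham and 4 in BLM, with a counting interval of -3.67 to -0.18. Its interval in enriched cells was -1.35 to -0.71, so both intervals also hold ratios short of 2-fold. The 3 comparisons of BLM with sham share no library, but they may share lungs, which the sources used here do not say.

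The other genes of these pathways were counted from a list of 56 co-receptors, ligands and signalling proteins. Of 52 tested, 27 were higher in the enriched fraction (background 21.5%) and 9 lower (19.2%), with 7 and 4 of 12 co-receptors, 6 and 1 of 9 other ligands and binding proteins, and 14 and 4 of 31 intracellular effectors. Nrp1, the co-receptor of class 3 semaphorins, was at 465, 111 and 658 CPM in the sham libraries and 321, 73.1 and 566 CPM in the BLM libraries, with a log2 fold of 2.66 (adjusted p = 9.43e-10) in the edgeR fit. Nrp2 was at 47.3, 11.8 and 44.8 CPM in the sham libraries and 301, 35.8 and 129.7 CPM in the BLM libraries, highest by far in BLM unsorted cells, with a fold of 1.79 (adjusted p = 2.04e-06). Itga1, an integrin chain that Sema7a engages, and Erbb2, a partner of plexin B receptors, were higher at 3.63 (adjusted p = 4.73e-15) and 3.19 (adjusted p = 1.11e-13). Cd72, the lymphocyte receptor of Sema4d, was lower at -3.56 (adjusted p = 7.80e-18), on the same side as its ligand. Of the netrin receptors outside the Unc5 family, Neo1 was higher at 1.46 (adjusted p = 0.00421), and Dcc was at or under 0.124 CPM in every library. Among the effectors, Dpysl2, a mediator of class 3 semaphorin signals, was higher at 2.18 (adjusted p = 1.15e-06) and the plexin-associated enzyme Mical1 lower at -2.14 (adjusted p = 1.38e-08), while Mical2 was higher at 3.03 (adjusted p = 3.20e-15).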

How the data were processed

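Raw read counts per gene, deposited by the authors without normalization, were read for 6 libraries, 1 for each treatment and cell suspension as the labels name them. The submitters' processing notes name Trimmomatic 0.36, STAR 2.5.2b, Subread 1.5.2 with featureCounts, DESeq2 and GRCm38. The strand setting is not given in the sources used here, so reads of Plxna1, Efna4, Sema4c and Epha1, whose exons overlap an opposite-strand gene by 10.7%, 10.5%, 7.27% and 6.01%, cannot be told from that gene's. Lengths came from GENCODE M21 and start regions from RefSeq (GRCm38.p6).

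TMM factors over 6 libraries, edgeR 4.0.16 in R 4.3.3 (quasi-likelihood test with filterByExpr, treatment as a block for the sort and suspension as a block for BLM against sham), DESeq2 1.42.0 and Python 3.11.15 (scipy 1.17.1) were used, and the scripts were tested on simulated data. Log2 ratios of single libraries used a prior count of 0.5, at least 10 reads in the higher library, 2-fold as the threshold, Clopper-Pearson 95% intervals and a floor of 3 reads. The members and the lists were chosen with earlier results of these data known. Values in every library were to be given for members with at least 50 reads in a library that were among the 12 largest mean levels per kb, the 6 largest or smallest ratios of the sort or the 4 largest or smallest ratios of the treatment in a comparison, or that led their family. This named 39 genes, some of which are given by fold only, and further members are named after their values were seen. Alternatives were other scalings, read minimums, prior counts, folds and fits.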

Additional observations from a re-analysis of the deposited data

Results flagged for a closer look

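For 7 of the 39 members chosen for their level or ratios, BLM and sham differed in opposite directions in the sorted fractions, with both counting intervals outside 0. The share of all genes that did so was not counted. Some of the 39 were chosen for their BLM over sham ratios in these same fractions. Each is 1 library against 1 library in each fraction, the difference itself was not tested, and all 7 depleted values use the BLM Lamp1-depleted library with 38.4% of its reads on Gm26917. Sema3c had a log2 ratio of BLM over sham of 0.12 in Lamp1-enriched and -1.11 in Lamp1-depleted cells. Epha4 had 0.38 in enriched and -0.73 in depleted cells, and Efnb1 had 0.11 and -0.50 in the same order. Sema3f was at 0.41 in enriched and -0.19 in depleted cells. Sema3g was at 0.40 and -0.25, and Robo4 at 0.07 and -0.28. Sema3a went the other way, at -0.78 in enriched cells, where it had 711 reads in sham and 490 in BLM, and 0.66 in depleted cells, where it had 83 and 61 reads, a depleted value that was -0.054 with total counts in place of TMM. Scaling with DESeq2 size factors in place of TMM moved every depleted ratio by 0.15. The depleted intervals of Sema3f, Sema3g and Robo4, with upper limits of -0.08, -0.13 and -0.11 under TMM, then held 0. The endothelial markers had a median log2 ratio of -0.10 in enriched and -0.59 in depleted cells, beside -0.0003 and -0.20 over all genes. In the same order the medians were -0.47 and -0.37 for smooth muscle and pericyte and -1.14 and -0.27 for alveolar epithelial markers. They were -2.78 and -0.82 for platelet and 0.88 and 0.02 for fibroblast markers. The part of these cell types was not tested.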

How the results depend on the processing

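The count of members higher after Lamp1 enrichment than after depletion, 39, ranged from 33 without the treatment block to 39 over the other scalings, filters and models, was 37 with DESeq2's Wald test, and was 40 without the BLM Lamp1-depleted library, a fit added after seeing the data. The count lower, 5, was 3 with total counts only, where Ephb6 and Sema4b lost the call, and 5 in every other fit. Without that library the log2 fold of Plxnb3, which was not called in the main fit, turned to -0.57, and Epha3 lost its call. Efna5, Unc5c and Epha3 lost theirs in 4, 3 and 3 of the alternative fits, Ephb1 without the treatment block. At 4-fold in place of 2-fold, 5 members were lower in enriched BLM cells, 4 were higher and 4 lower in BLM unsorted cells, 5 higher and 0 lower in BLM enriched cells, and 3 higher and 0 lower in BLM depleted cells. With at least 1 read, 8 members were 2-fold lower in sham enriched than depleted cells, and 17 were higher in BLM depleted cells. With at least 50 reads, 1 was lower in BLM enriched cells. With total counts only, the medians of BLM over sham were -0.66 in unsorted and -0.84 in depleted cells, 3 members were higher and 19 lower in depleted cells, and Sema3a there turned to -0.054. That scaling moved every ratio of BLM over sham in depleted cells by -0.72 and of enriched over depleted BLM cells by 0.56. Of 190 ratios of the named members, 21 crossed 2-fold with total counts, 4 with DESeq2 size factors and 3 with Gm26917 and Gm42418 left out, and no ratio past 2-fold changed sign. In the test of BLM against sham over the 3 suspensions, added after seeing the data, the 6 members higher became 1 and the 0 lower became 3 with total counts only, DESeq2's Wald test called 3 lower, and the 6 ranged up to 8 without both Lamp1-depleted libraries. Depth limits the 3 members under 10 reads in every library. In Lamp1-depleted cells 11 members had 3 or fewer reads in sham and 7 in BLM.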
